A study of Mus musculus with 30 samples.

Results

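The regions of H3K27ac and of H3K4me3 that were listed as specific to microglia with intact Mir137 (cWT) were set against each other, to see which genes carried either mark or both and where in relation to genes the regions lay. H3K27ac, acetylation of lysine 27 of histone H3, marks active enhancers and active promoters, whereas H3K4me3, trimethylation of lysine 4, is concentrated at the starts of active genes. In macrophages, microglia among them, much of the cell-type-specific H3K27ac lies at enhancers away from promoters. The members were all regions of both cWT lists, 6995 for H3K27ac and 834 for H3K4me3, together 7829 of the 22399 regions in the 10 deposited lists. No region was chosen by its values.

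The cells were sorted microglia, brain-resident macrophages, from C57BL/6J mice labelled as 8 weeks old. CUT&Tag was used, an assay that brings a transposase to antibody-bound chromatin to cut and tag the DNA there. cKO mice were Mir137loxP/loxP;Tmem119-CreERT2 and cWT mice were Mir137+/+;Tmem119-CreERT2. Both genotypes carried the same tamoxifen-inducible Cre, driven from Tmem119, a microglial gene, and both received tamoxifen on 7 consecutive days at 7 to 8 weeks of age. Each list stands for 3 replicates according to the sample titles, about 100000 sorted cells were used per genotype, and the design text also speaks of 4 mice; the labels do not tell whether the replicates were separate mice or pools. The lists hold no value per replicate, and a cWT-specific region is one that the submitters placed in the cWT list, by a rule that the sources used here do not give.

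Each region comes with a deposited score of up to 1000 and a deposited p-value, both the authors' own, and the sources used here do not say what they test. The median p-value was 0.801 for H3K27ac and 0.846 for H3K4me3, and 21 H3K27ac regions and 6 H3K4me3 regions had a deposited p-value under 0.05. Some regions also went against the word specific: 68 cWT H3K27ac regions (0.972%) overlapped a region of the cKO H3K27ac list, and 45 cWT H3K4me3 regions (5.40%) overlapped a region of the cKO H3K4me3 list. Leaving these regions out moved no test reported here across its threshold. The protocol gives a single catalogue number for the H3K27ac antibody and both Pol II antibodies and another for the H3K4me3 and Pu.1 antibodies, so the antibody behind a list is known from the sample labels alone. Of the microglial markers, P2ry12, Tmem119, Csf1r, Sall1, Siglech and Gpr34 each had at least 1 H3K27ac region assigned, Gpr34 also had an H3K4me3 region, and Cx3cr1 had neither. Of 78 markers of other brain, blood and border cells, 14 had H3K27ac (17.9%, against 19.5% of all protein-coding genes) and 1 had H3K4me3 (1.28%, against 3.55%), and none of the 15 neuronal markers had either; the part of other cells in the lists was not tested. In these bulk samples a mark present in few cells and a weak mark in many cells cannot be told apart.

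The sequences shown first are the promoters at which the marks coincided over the greatest length. Both marks can sit on the nucleosomes flanking an active start, and the widest direct overlaps of the lists lay at Zcchc2 (761 bp), which encodes a zinc finger protein, Mrps12 (737 bp), a protein of the mitochondrial ribosome, Il1a (698 bp), the cytokine interleukin-1 alpha, Phf21a (690 bp), a reader of unmethylated H3K4, and Nup133 (688 bp), a nuclear pore protein. Ranbp9 (682 bp), a subunit of a ubiquitin ligase, Layn (607 bp), a hyaluronan receptor, Selenop (589 bp), a selenium carrier, Pfdn2 (579 bp), a subunit of the prefoldin chaperone, and Tmem123 (575 bp), a membrane protein, completed the 10 widest. In all 10 pairs both regions lay at the gene start. RefSeq promoters on GRCm38.p6, 250 bases before to 50 bases after the start and written 5′ to 3′ on the gene's strand, are given for the first 6 of them whose promoter window is itself touched by the shared stretch, which leaves out Il1a and Ranbp9. Capitals mark 3 boxes found on either strand: GGGCGG, the CCAAT box and the TATAAA box. Where a box lies on the other strand, its reverse complement is written.
Zcchc2: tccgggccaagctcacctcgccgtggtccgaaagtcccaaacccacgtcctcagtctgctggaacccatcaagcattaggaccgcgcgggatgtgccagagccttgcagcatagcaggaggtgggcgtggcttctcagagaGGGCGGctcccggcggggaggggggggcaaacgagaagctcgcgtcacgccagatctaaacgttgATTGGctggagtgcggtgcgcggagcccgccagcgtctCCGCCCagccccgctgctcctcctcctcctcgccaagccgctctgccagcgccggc
Mrps12: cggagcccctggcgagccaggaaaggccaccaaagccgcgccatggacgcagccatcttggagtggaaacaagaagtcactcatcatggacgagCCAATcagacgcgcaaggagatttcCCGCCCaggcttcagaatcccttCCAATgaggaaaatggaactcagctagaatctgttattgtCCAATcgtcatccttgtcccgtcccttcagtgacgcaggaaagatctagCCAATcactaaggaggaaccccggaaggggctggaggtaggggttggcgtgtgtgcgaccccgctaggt
Phf21a: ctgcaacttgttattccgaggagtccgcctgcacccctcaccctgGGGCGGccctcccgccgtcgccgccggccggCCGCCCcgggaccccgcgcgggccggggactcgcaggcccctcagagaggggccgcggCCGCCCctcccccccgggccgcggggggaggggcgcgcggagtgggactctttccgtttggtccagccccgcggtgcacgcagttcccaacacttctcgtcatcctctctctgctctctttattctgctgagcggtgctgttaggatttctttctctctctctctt
Nup133: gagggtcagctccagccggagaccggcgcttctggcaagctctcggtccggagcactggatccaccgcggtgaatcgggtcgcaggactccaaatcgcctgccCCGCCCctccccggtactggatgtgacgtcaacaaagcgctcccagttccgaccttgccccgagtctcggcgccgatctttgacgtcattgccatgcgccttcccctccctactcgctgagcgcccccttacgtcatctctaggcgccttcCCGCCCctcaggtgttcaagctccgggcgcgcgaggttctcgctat
Layn: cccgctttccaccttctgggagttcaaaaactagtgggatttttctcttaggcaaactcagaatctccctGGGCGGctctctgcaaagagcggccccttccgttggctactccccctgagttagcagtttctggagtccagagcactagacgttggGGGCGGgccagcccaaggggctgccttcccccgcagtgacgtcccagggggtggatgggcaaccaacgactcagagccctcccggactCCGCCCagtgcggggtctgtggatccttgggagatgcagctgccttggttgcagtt
Selenop: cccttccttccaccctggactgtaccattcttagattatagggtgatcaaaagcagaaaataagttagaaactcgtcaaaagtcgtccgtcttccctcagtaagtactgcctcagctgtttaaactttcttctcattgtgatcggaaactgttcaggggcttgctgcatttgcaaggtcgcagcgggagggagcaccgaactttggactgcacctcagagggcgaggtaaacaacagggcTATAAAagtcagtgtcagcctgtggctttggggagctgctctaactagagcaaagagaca

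The Zcchc2 window is chr1:105990156-105990455 on the plus strand, where the H3K27ac region spans chr1:105989986-105991068 and the H3K4me3 region chr1:105990308-105991101. Mrps12 lies on the minus strand at chr7:28741772-28742071, inside an H3K27ac region of 737 bp that itself lies within an H3K4me3 region of 751 bp. Phf21a (chr2:92185233-92185532, plus strand) had an H3K27ac region of 1024 bp that held the whole H3K4me3 region of 690 bp, and Nup133 (chr8:123949216-123949515, minus strand) one of 1156 bp around an H3K4me3 region of 688 bp. The H3K27ac region was the longer of the pair at Zcchc2, Phf21a and Nup133, and the shorter at Mrps12. The GGGCGG box, the core of the binding site of Sp1-family factors, occurred between 1 and 3 times in 5 of the 6 windows, CCAAT occurred 4 times in Mrps12 and 1 time in Zcchc2, and the Selenop window (chr15:3270727-3271026, plus strand) was the one with a TATAAA box and no GGGCGG. Layn (chr9:51077045-51077344, minus strand) held 3 GGGCGG boxes. Observed over expected CpG was between 0.435 in Layn and 1.00 in Nup133. A letter match describes the window and shows no bound factor.

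The 2 marks were placed differently. Within 2 kb of the start of a protein-coding gene lay 2103 of 6995 H3K27ac regions, 30.1% with a 95% Clopper-Pearson interval of 29.0 to 31.2%, against 683 of 834 H3K4me3 regions, 81.9% with an interval of 79.1 to 84.5%. The odds of lying at a gene start were 0.0953 times as high for H3K27ac as for H3K4me3 (95% interval 0.0793 to 0.114; by the exact test of Fisher, two-sided and with Benjamini-Hochberg adjustment over the 5 placement tests, p = 3.98e-186). The intervals and the test cover the counting of listed regions; regions of a list are not replicates of the genotype, and some neighbour each other. From midpoint to the nearest start, the median distance was 11.5 kb for H3K27ac (quartiles 0.957 and 38.1 kb) and 0.290 kb for H3K4me3 (quartiles 0.153 and 0.881 kb). Most H3K4me3 regions thus sat on a promoter, whereas most H3K27ac regions lay kilobases from any coding start.

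The lists of the other genotype showed the same order, with a smaller gap. Of the cKO-specific regions, 294 of 847 for H3K27ac (34.7%, interval 31.5 to 38.0%) and 1057 of 1331 for H3K4me3 (79.4%, interval 77.1 to 81.6%) lay at a gene start, an odds ratio of 0.138 (0.114 to 0.168). The odds ratio in cKO lists was 1.45 times that in cWT lists (1.11 to 1.89, adjusted p = 0.00779, likelihood ratio chi-square test of the interaction of mark and genotype over 10007 regions). The call was lost in 2 alternatives, by the same chi-square test with the same adjustment. The ratio was 1.48 (adjusted p = 0.0514, chi-square test) in the regions with the smaller deposited p-values of each list. It was 1.21 (adjusted p = 0.182, chi-square test) when either end of a gene was taken as its start. The difference between the marks was therefore present in both genotypes, and its excess in cWT depends on these choices.

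**Figure D1:**
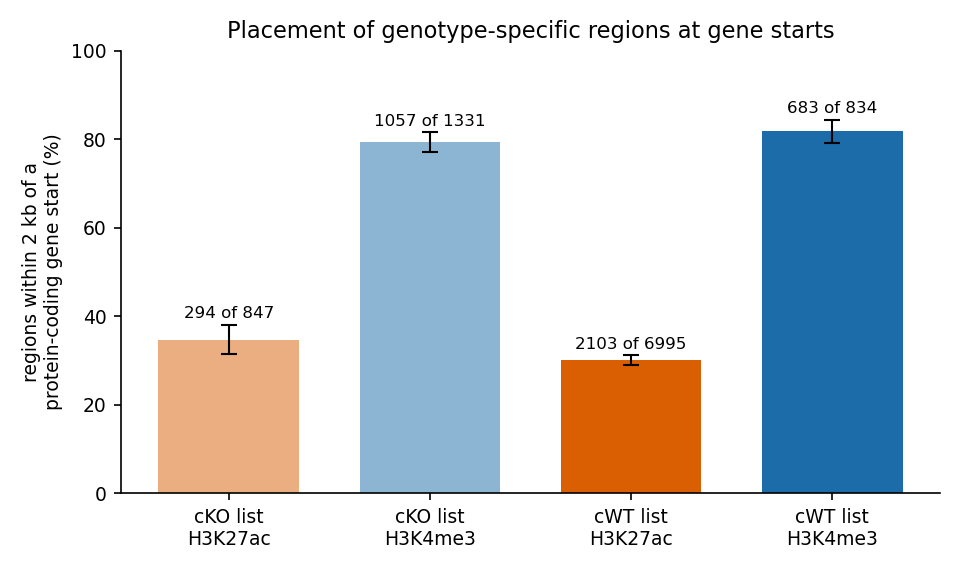
Share of the listed regions within 2 kb of a protein-coding gene start (%), for the cKO and the cWT lists of both marks, with counts above the bars and 95% Clopper-Pearson intervals as error bars. H3K4me3 bars stand near 80% in both genotypes, at 79.4% in cKO and 81.9% in cWT, and H3K27ac bars at 34.7% in cKO and 30.1% in cWT.

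Away from starts the marks differed in how often they lay inside genes. Of the 4892 H3K27ac regions away from coding starts, 3099 (63.3%) had their midpoint inside a protein-coding gene, against 61 of 151 H3K4me3 regions (40.4%), an odds ratio of 2.54 (1.83 to 3.53, adjusted p = 4.47e-08 in Fisher's exact test). With either gene end as a start the odds ratio was 1.41, with 65.4% of away H3K27ac and 57.2% of away H3K4me3 regions inside a gene. The RefSeq table used has no exons, so these regions could not be split into exons, introns and untranslated parts. Of the same away regions, 466 for H3K27ac (9.53%) and 43 for H3K4me3 (28.5%) lay within 2 kb of the start of a gene that does not code for protein, or of either end where the table lists no start for it. Over 100 kb from any coding start lay 629 of the away H3K27ac regions (12.9%) and 29 of the away H3K4me3 regions (19.2%). Within 10 kb of a start lay 1201 of the away H3K27ac regions (24.6%) and 36 of the away H3K4me3 regions (23.8%). Distal H3K27ac thus lay inside coding genes more often than the few H3K4me3 regions off coding promoters did, while whether most of these H3K4me3 regions lay outside genes depended on how starts were defined.

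Around the starts themselves the marks had a similar shape. Among regions whose midpoint lay within 2 kb of a listed start, 1163 of 1686 H3K27ac regions (69.0%) and 441 of 567 H3K4me3 regions (77.8%) were centred downstream of it. The median midpoint was 154 bp downstream for H3K27ac (quartiles -68.3 and 308 bp) and 181 bp downstream for H3K4me3 (quartiles 34.3 and 323 bp). Within 500 bp of the start were 1284 H3K27ac midpoints (76.2%) and 475 H3K4me3 midpoints (83.8%). Both profiles peaked just inside the gene, where the first nucleosomes after a start lie, and no test was made between them.

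**Figure D2:**
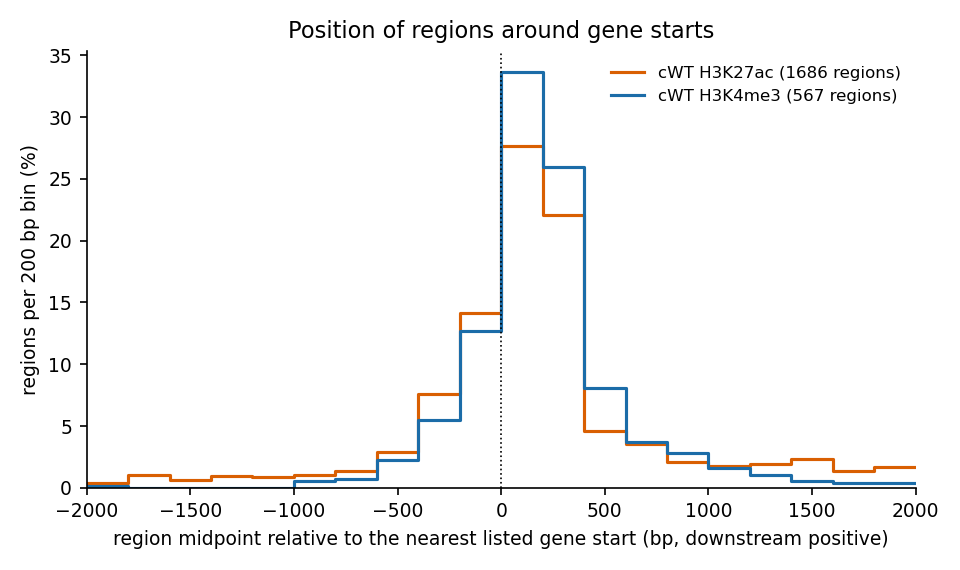
Share of the regions within 2 kb of a listed gene start (%) in each 200 bp bin of the distance from that start to the region's midpoint (bp, downstream positive), for 1686 cWT H3K27ac and 567 cWT H3K4me3 regions. Both lines peak in the bin just downstream of the start, and the H3K27ac line is higher than the H3K4me3 line near both edges of the plot.

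Regions of both lists were short. H3K27ac regions had a median width of 435 bp (quartiles 334 and 574 bp, range 166 to 2130 bp) and H3K4me3 regions of 394 bp (quartiles 296 and 526 bp, range 158 to 1670 bp). A domain could be split over several lines of a list: 203 H3K27ac regions (2.90%) and 14 H3K4me3 regions (1.68%) followed the one before without a gap, each with the same deposited signal as it. Joining regions within 1 kb left 6586 H3K27ac and 813 H3K4me3 regions.

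Direct overlap was a small share of the H3K27ac list and a larger share of the H3K4me3 list. In 152 pairs the marks shared at least 1 bp, and the pairs held 152 H3K27ac regions (2.17%, interval 1.84 to 2.54%) and 148 H3K4me3 regions (17.7%, interval 15.2 to 20.5%). The shared stretch was between 2 and 761 bp long, with a median of 297 bp. Counting regions up to 1 kb apart gave 201 H3K27ac (2.87%) and 189 H3K4me3 regions (22.7%). For 99 H3K4me3 regions (11.9% of the whole list) the nearest H3K27ac region lay 1 to 10 kb away. It lay 10 to 100 kb away for 330 (39.6%) and over 100 kb away for 216 (25.9%). A cWT-specific promoter mark was therefore most often listed without cWT-specific acetylation at the same place.

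H3K27ac regions were also divided by whether they overlapped H3K4me3. Of the 152 H3K27ac regions that overlapped H3K4me3, 124 (81.6%) lay at a gene start, against 1979 of the 6843 that did not (28.9%), an odds ratio of 10.7 (7.12 to 16.2, adjusted p = 7.99e-40 in Fisher's exact test). A region that overlaps H3K4me3 has to lie where H3K4me3 lies, mostly at starts, so this contrast is not independent of the first comparison of placement. H3K4me3 regions divided by overlap with H3K27ac gave no call: 120 of 148 overlapping regions (81.1%) and 563 of 686 others (82.1%) lay at a start, an odds ratio of 0.927 (0.589 to 1.46, adjusted p = 0.814 in Fisher's exact test). The interval of this odds ratio leaves room for a difference in either direction. Overlapping H3K27ac regions had a median deposited score of 70, against 39 for the others, and a median deposited p-value of 0.677 against 0.802. For H3K4me3 the median scores were 34.5 in overlapping regions and 29 in the others. These are the authors' values, described within each list and not tested.

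In all, 4268 protein-coding genes had at least 1 H3K27ac region assigned (19.5% of 21887 genes), 776 had an H3K4me3 region (3.55%) and 332 had both (1.52%). Each region went to the protein-coding gene with the nearest start, within 100 kb, which placed 6366 H3K27ac regions (91.0%) and 805 H3K4me3 regions (96.5%). The shared genes were 7.78% of the H3K27ac genes and 42.8% of the H3K4me3 genes. H3K27ac without H3K4me3 was found at 3936 genes (18%), H3K4me3 without H3K27ac at 444 genes (2.03%), and 17175 genes had neither. The nearest gene is a rule of distance and not a measured target, and the count of shared genes fell to 158 when only regions within 2 kb of a start were kept.

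At the 332 shared genes the marks were arranged in different ways. At 142 (42.8%) the regions overlapped directly, whether at a start or away from it. In 28 of the 152 overlapping pairs neither region lay at a start. The arrangements that follow were counted among the genes without direct overlap, as shares of all 332. At 41 (12.3%) both marks lay at a start without touching. At 108 genes (32.5%) H3K4me3 lay at the start and all H3K27ac away from it, the layout of a marked promoter with a distal acetylated site. The reverse, H3K27ac at a start and H3K4me3 away, was seen at 4 genes (1.20%), and at 37 (11.1%) both marks lay away from a start. The shared genes were longer than the average gene: median length was 29.5 kb at genes with both marks, 28.8 kb with H3K27ac only, 22.0 kb with H3K4me3 only and 14.7 kb with neither, and the part of length in the assignment was not tested.

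Counts at single genes depend on which regions are kept: of 121 named genes, 79 changed their count by over 1.5 times and 44 kept no region when the regions with the smaller deposited p-values were taken, and with regions of at least 300 bp 11 kept none, among them Tmem119, Tyrobp, Ctss, Irf8 and Ccl4. The genes with the most regions of both marks were Dnmt3a, a de novo DNA methyltransferase, and Sh3pxd2a, a scaffold of podosomes, each with 8 H3K27ac regions and 1 H3K4me3 region. At Dnmt3a (chr12:3801559-3914443) the H3K4me3 region, chr12:3806560-3807635 and 1076 bp wide, was overlapped by an H3K27ac region of 314 bp, while 3 acetylated regions lay outside the gene, between 26.2 and 67.0 kb from the nearest listed start, and 4 others inside it. The Dnmt3a regions had deposited p-values between 0.433 and 0.952 for H3K27ac and of 0.821 for H3K4me3. Nrp1, a coreceptor of semaphorins and VEGF, had 7 H3K27ac regions and 1 H3K4me3 region at its 5′ end (chr8:128358504-128358970). None of the Nrp1 regions overlapped the other mark: the nearest H3K27ac regions lay just upstream (chr8:128356832-128357444, as 2 abutting lines), 3 more lay between 90.6 and 92.4 kb upstream of the nearest listed start, and 2 lay inside the gene. At Dnmt3a and Nrp1 a single promoter mark was thus accompanied by several acetylated sites on both sides of it.

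Chd2, a chromatin remodeller, and Frmd4a, a FERM-domain scaffold protein, were among the 37 genes with both marks away from a start and no direct overlap. Chd2 had 5 H3K27ac and 2 H3K4me3 regions, and both H3K4me3 regions (chr7:73557038-73557724 and chr7:73618552-73619175) lay outside the gene, which ends at 73541746. Frmd4a had 6 H3K27ac regions and 2 abutting H3K4me3 regions inside the gene, 10.8 and 11.2 kb upstream of the nearest listed start. The other genes among the 10 with the most regions were Rapgef5 (7 H3K27ac and 1 H3K4me3), an exchange factor of Rap GTPases, Pip4k2a, Rbm47 and Sipa1l2 (6 and 1 each), a lipid kinase, an RNA-binding protein and a Rap GTPase regulator, and Atxn7l1 (5 and 1), a relative of ataxin 7. Several regions per gene were more frequent for H3K27ac than for H3K4me3: among shared genes 123 of 332 (37.0%) had at least 2 H3K27ac regions and 18 (5.42%) had 2 H3K4me3 regions, which was the most any gene had. The H3K27ac list is also much longer, with 6995 regions against 834, and abutting lines were counted separately. The part of list length in this comparison was not tested.

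Genes with H3K27ac only reached the highest numbers. Nek7, a kinase needed for the NLRP3 inflammasome, had 13 H3K27ac regions along chr1:138549036-138622971: 2 at the start, 10 within the gene between 4.97 and 70.3 kb downstream, and 1 upstream of the start by 3.06 kb. None of the 13 overlapped an H3K4me3 region, and Nek7 had no region in the cKO lists of either mark. Med13l, a subunit of the Mediator kinase module, had 10, Asap1, an Arf GTPase activator, 9, and Camk2d, a calmodulin-dependent kinase, and Nt5c2, a nucleotidase, 8 each. Some of the Nek7 and Med13l regions were neighbouring or abutting lines with the same deposited signal, so these counts can exceed the number of separate domains. The genes from Nek7 to Nt5c2 are between 130 and 296 kb long, against a median of 17.2 kb over all protein-coding genes. The part of length was not tested. The genes with H3K4me3 only had at most 2 regions, as at Ap5s1 (an adaptor complex subunit), Erbb3 (a receptor of neuregulins), Fam161a (a ciliary protein), Gas2 (an actin-associated protein) and Gltp (a glycolipid carrier), which came first by alphabet among 11 such genes. At Ap5s1, Erbb3, Gas2 and Gltp the 2 regions were abutting lines with the same deposited signal, as from a single split domain. Those of Fam161a lay apart.

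**Figure D3:**
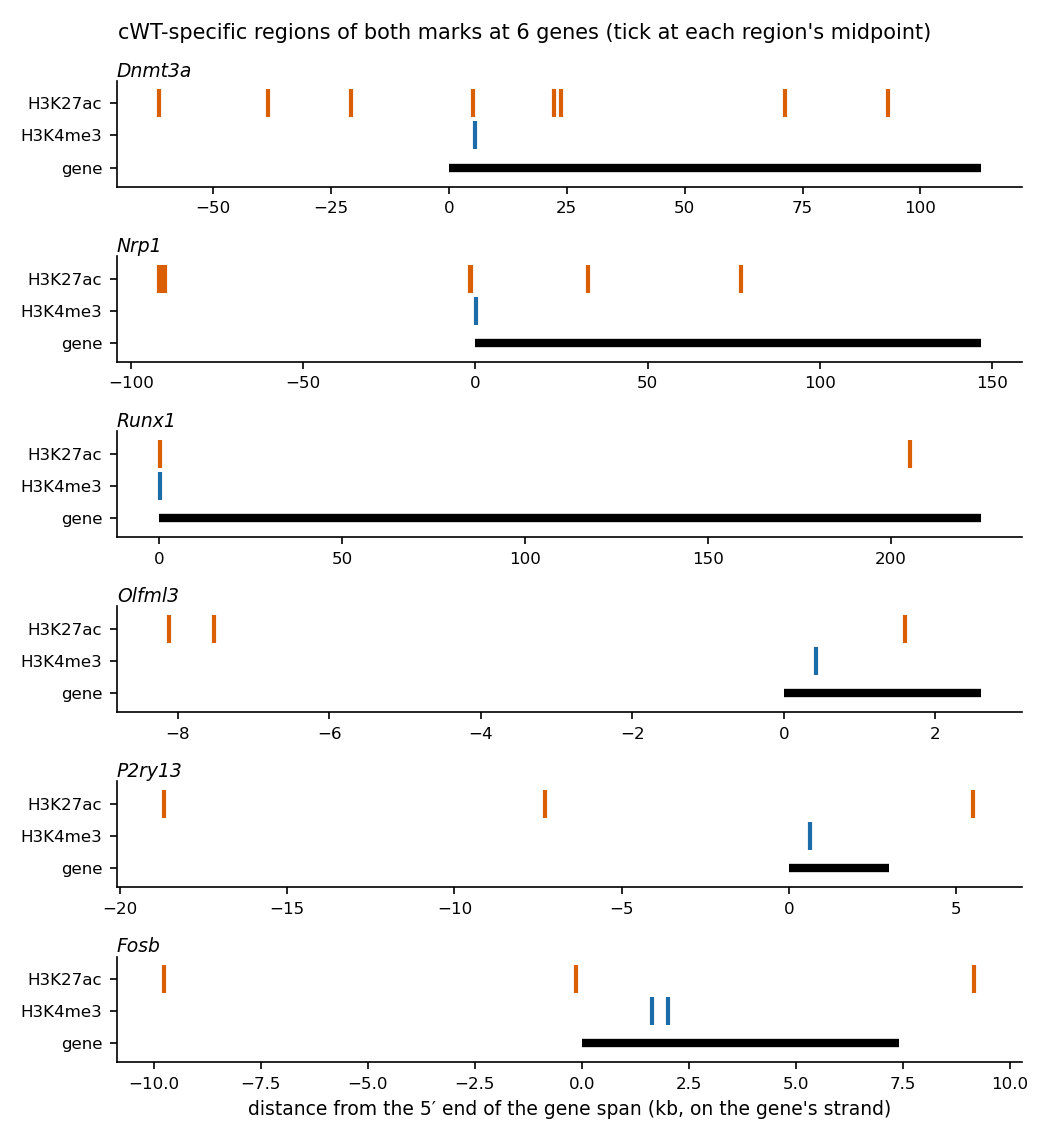
Midpoints of cWT-specific H3K27ac (orange) and H3K4me3 (blue) regions assigned to 6 genes, by distance from the 5′ end of the gene span (kb, on the gene's strand), with the gene as a black bar. A single H3K4me3 position, or an abutting pair at Fosb, lies near a start of each gene (at Dnmt3a, a start inside the gene span). H3K27ac lies upstream of the gene at all but Runx1, and inside it at Dnmt3a, Nrp1, Runx1 and Olfml3. At P2ry13 and Fosb it also lies past the far end of the gene.

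Homeostatic microglial genes, whose expression sets resting microglia apart, carried both marks more often than the background of all genes. Of 33 listed genes, 22 had H3K27ac (66.7%, against 19.5% of all protein-coding genes), 10 had H3K4me3 (30.3%, against 3.55%) and 7 had both (against 1.52%). The 7 were P2ry13, a purine receptor, Gpr34, a lysophospholipid receptor, Fcrls, an Fc receptor-like protein, Olfml3, a secreted protein, Entpd1, an ATP-hydrolysing enzyme, Ltc4s, leukotriene C4 synthase, and Maf, a transcription factor. P2ry13 had its H3K4me3 region at the start (chr3:59209986-59210516) and 3 H3K27ac regions away from it, of which chr3:59217927-59218428 and chr3:59229369-59229752 lie within the span of the neighbouring receptor gene P2ry12. P2ry12 itself had 1 H3K27ac region and no H3K4me3. At Olfml3 both marks lay at the start without overlap (H3K27ac chr3:103736205-103736586, H3K4me3 chr3:103737297-103737862), and 2 further H3K27ac regions lay 7.52 and 8.12 kb upstream. Gpr34 had 3 H3K27ac regions outside the gene and H3K4me3 inside it (chrX:13633672-13634312), away from both of its ends. Regions at homeostatic genes were not confined to the cWT lists. The cKO H3K27ac list had regions at Entpd1, Ltc4s, Sall1, Selplg and Mef2c, against 3.2% of all genes. The cKO H3K4me3 list had regions at P2ry13, Siglech, Selplg, Itgam, Mef2c, Ctss and Cx3cr1, against 5.62% of all genes.

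H3K27ac alone marked 15 homeostatic genes, among them Tmem119 (1 region), Csf1r (1), the receptor of the survival factor CSF1, Sall1 (3), a transcription factor of microglial identity, and Mef2c (5), another transcription factor. Genes with H3K4me3 alone included Tyrobp, the signalling adaptor of TREM2 (chr7:30414348-30414568), and Ctss, a lysosomal protease (chr3:95526924-95527203), both at a start, which for Tyrobp means an end of the gene. Over the list, 13 of 41 H3K27ac regions (31.7%) and 9 of 10 H3K4me3 regions lay at a gene start, close to the shares of 30.1% and 81.9% over all regions. At homeostatic genes, as over the whole lists, H3K4me3 was mainly a mark of starts and H3K27ac was mainly distal; the list was described and not tested.

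Myeloid transcription factors had H3K27ac at 17 of 26 genes (65.4%, against 19.5% of all protein-coding genes) and H3K4me3 at 5 (19.2%, against 3.55%). Both marks were at Runx1, Maf, Bach1 and Atf3, against 1.52% of all genes. At Runx1, a factor of blood cell formation, an H3K27ac region of 1227 bp at the start (chr16:92825113-92826339) enclosed the H3K4me3 region of 272 bp, and a second H3K27ac region lay 76.4 kb from the nearest listed start, inside the gene. Spi1, which encodes Pu.1, had 1 H3K27ac region, Irf8, a partner of Pu.1, had 1, Cebpa 1 and Cebpb 4, all 4 without H3K4me3. Elf4, an ETS factor, was the single member with H3K4me3 alone. Only 6 of the list's 31 H3K27ac regions (19.4%) lay at a start, whereas all 5 H3K4me3 regions did.

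Immediate early genes, which are induced within minutes of a stimulus, had the second highest share of H3K4me3 at 6 of 20 genes (30%, against 3.55% of all protein-coding genes). H3K27ac lay at 9 (45%, against 19.5%), and 9 of the 20 had neither mark. Fosb, a subunit of the AP-1 factor, had 3 H3K27ac regions, 1 of them at the start (chr7:19310082-19310410, score 203), and 2 abutting H3K4me3 regions downstream, 1.57 and 1.95 kb from the start. Fos had 2 abutting H3K4me3 regions across its start (chr12:85473565-85474427) and a single H3K27ac region 15.6 kb downstream. Dusp1, a MAP kinase phosphatase, likewise had H3K4me3 at the start and 2 H3K27ac regions away from it, 5.33 kb downstream and 25.7 kb upstream. Junb, another AP-1 subunit, and Hspa1b, a heat shock protein, had H3K4me3 alone, and Egr1, Fosl2, Btg2, Ier5 and Nr4a1 had H3K27ac alone. All 8 H3K4me3 regions of the list lay at a start, against 3 of 13 H3K27ac regions (23.1%). H3K4me3 at this list was not confined to cWT. The cKO H3K4me3 list had regions at Dusp1, Egr1, Junb, Hspa1b, Jun, Jund, Zfp36 and Klf6, against 5.62% of all genes. It had none at the other members, Fos, Fosb and Atf3 among them.

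The inflammatory and phagocytic lists had more genes with H3K27ac than with H3K4me3, as did all protein-coding genes (19.5% and 3.55%). Cytokine and NF-kB genes had H3K27ac at 16 of 34 (47.1%) and H3K4me3 at 3 (8.82%): Il1a with both, and Nfkbia, the inhibitor of NF-kB, and Myd88, the adaptor of Toll-like receptors, with H3K4me3 alone. Il1b (1 region), Il6 (2), Ccl2 (1) and Ccl4 (3), which encode cytokines and chemokines, had H3K27ac alone. Phagocytosis and lysosome genes had H3K27ac at 18 of 30 (60%) and H3K4me3 at 4 (13.3%), with 7 regions at Elmo1 and 4 at Dock2, both regulators of Rac and engulfment, and 5 at Lgmn, a lysosomal protease. Fcgr3, an Fc receptor, carried both marks, neither at a listed start; its H3K4me3 region (chr1:171064286-171064999) lay 5.24 kb upstream of the nearest listed start and close to the 5′ end of the gene span at 171065915. The interferon response list had H3K27ac at 8 of 28 genes (28.6%), among them Isg20, Oasl2 and Ddx58, and no H3K4me3, which among 28 genes is near the background of 3.55%. Of the 9 H3K27ac regions of the interferon list 6 lay at a start, and of the 26 of the cytokine list also 6; this difference was not tested.

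Housekeeping lists were read against the background of all protein-coding genes, 19.5% with H3K27ac. H3K27ac was assigned to 7 of 30 ribosomal protein genes (23.3%), 9 of 30 oxidative phosphorylation genes (30%) and 7 of 30 genes of DNA repair and the cell cycle (23.3%). H3K4me3 was assigned to 2 ribosomal (6.67%), 3 oxidative phosphorylation (10%) and 4 DNA repair and cell cycle genes (13.3%), against 3.55% of all genes. Both marks were at 1 ribosomal, 3 oxidative phosphorylation and 2 DNA repair and cell cycle genes, against 1.52% of all genes. At starts lay 6 of 8 H3K27ac regions of ribosomal genes, 7 of 13 of oxidative phosphorylation genes and 4 of 8 of DNA repair and cell cycle genes, together with every one of the 9 H3K4me3 regions of these lists. Direct overlap at the start was seen at Rps9, a ribosomal protein, and at Ndufv1 and Cox5b, subunits of respiratory complexes I and IV. Among enzymes and readers of the marks, H3K27ac lay at 5 of 17 H3K4 methylation genes (29.4%), such as Kmt2a and Kdm5b, and at 8 of 19 H3K27 acetylation genes (42.1%), such as Ep300 (3 regions) and Hdac1, against 19.5% of all genes. H3K4me3 lay at Rbbp5 and Sin3a, and no gene of these lists had both marks, as most genes had not (1.52%). Among markers of other cells, H3K27ac lay at 4 of 12 astrocyte, 3 of 13 oligodendrocyte, 2 of 12 endothelial and pericyte, 2 of 13 lymphocyte and 3 of 13 border macrophage and monocyte genes. The most regions were the 7 at Slc1a3, a glutamate transporter of astrocytes, some of them abutting lines with the same deposited signal. Next came 3 each at Mbp, a myelin protein, Pecam1, an endothelial adhesion molecule, and Ccr2, a monocyte receptor. Kdr, a VEGF receptor of endothelium, was the 1 such gene with H3K4me3.

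**Figure D4:**
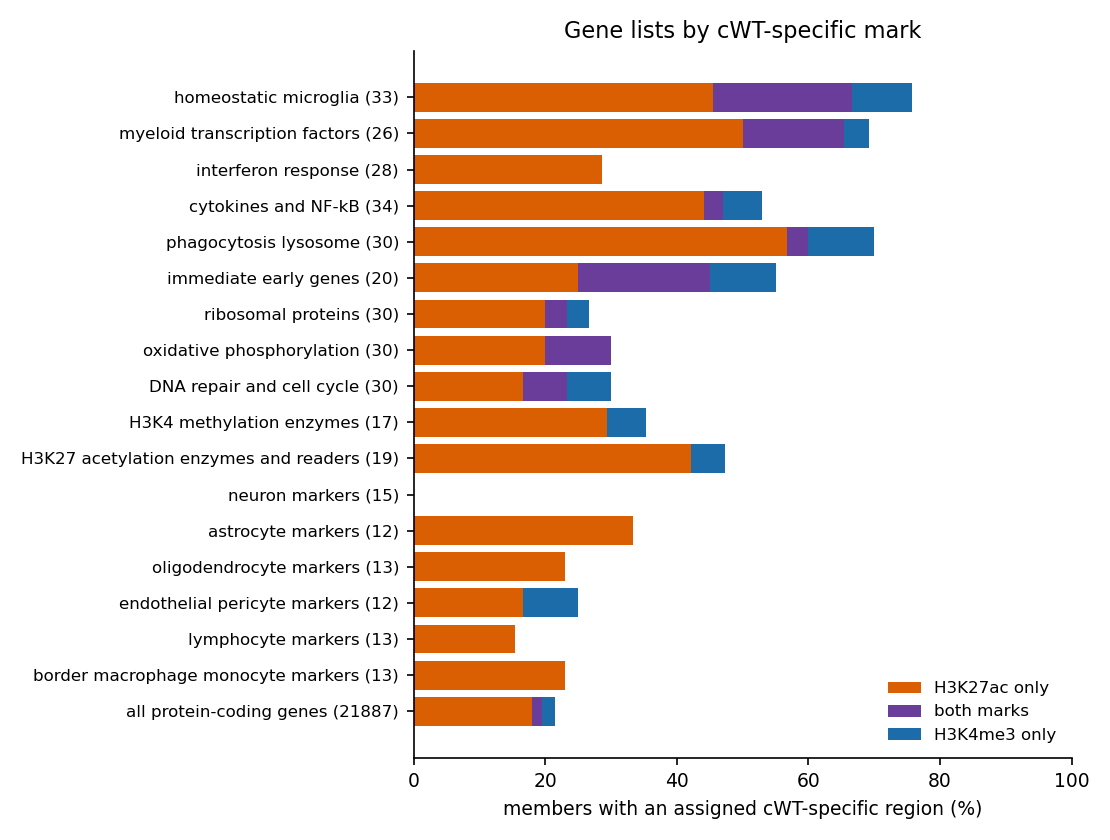
Share of the members of each gene list (%, number of members in brackets) with cWT-specific H3K27ac only, both marks or H3K4me3 only, with all 21887 protein-coding genes at the bottom. Homeostatic microglia, myeloid transcription factors and phagocytosis genes extend farthest, the 15 neuron markers have no bar, and both-mark segments are widest in the homeostatic and immediate early lists.

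The promoters under the marks differed from other promoters in base composition. Of 21263 RefSeq promoter windows, 77 were overlapped by cWT regions of both marks, 1153 by H3K27ac only, 343 by H3K4me3 only and 19690 by neither. Median observed over expected CpG was 0.782 with both marks, 0.783 with H3K27ac only, 0.841 with H3K4me3 only and 0.532 with neither. Median GC content was 62% with both marks, 61.3% with H3K27ac only, 63% with H3K4me3 only and 56% with neither. Few marked promoters were poor in CpG, whereas windows with neither mark also formed a low group. GGGCGG occurred in 55.8% of windows with both marks, 66.3% with H3K27ac only and 74.3% with H3K4me3 only, against 46.2% of all windows. The TATAAA box occurred in 5.19% with both, 5.90% with H3K27ac only and 6.12% with H3K4me3 only, against 12.6% of all. GGAAGT, which contains the core that ETS factors such as Pu.1 bind, occurred in 32.5% with both, 33.0% with H3K27ac only and 29.7% with H3K4me3 only, against 24.8% of all. CCAAT occurred in 32.5% with both, 44.0% with H3K27ac only and 42.3% with H3K4me3 only, against 38.2% of all. TGANTCA, the form of the AP-1 site, occurred in 2.60% with both, 4.94% with H3K27ac only and 5.54% with H3K4me3 only, against 6.99% of all. Marked promoters of every class thus held the TATAAA box less often, and GGGCGG and GGAAGT more often, than all windows, which is a description without a test. Motifs were searched on both strands, and the classes differ in CpG content, whose part in the motif shares was not tested.

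**Figure D5:**
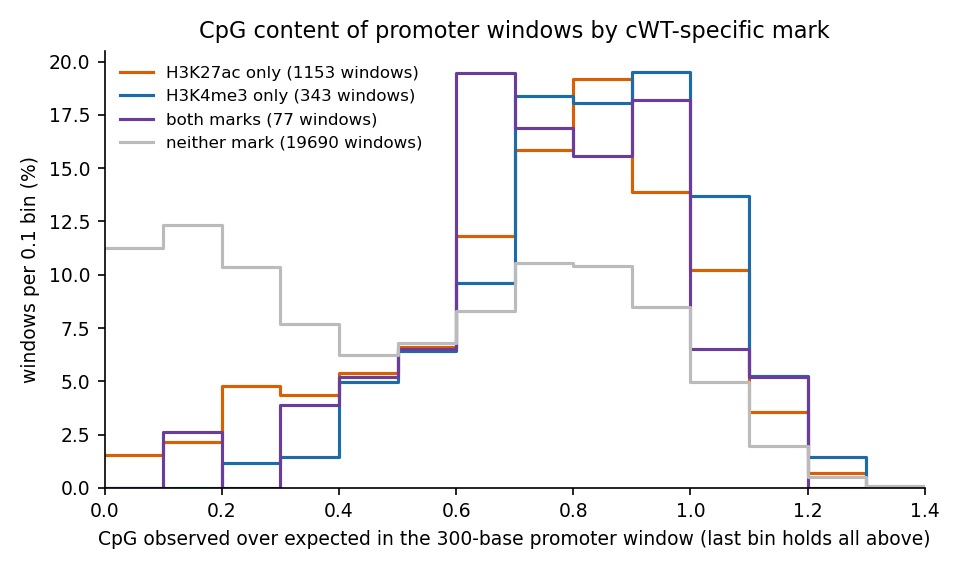
Share of promoter windows (%) in each bin of observed over expected CpG, for windows overlapped by cWT regions of H3K27ac only, H3K4me3 only, both marks or neither. The marked classes gather between about 0.6 and 1.0, with medians from 0.782 to 0.841, and the windows with neither mark have a second group below 0.4.

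Genotype-specific regions of other antibodies touched the marks to different extents. No other list overlapped 5544 H3K27ac regions (79.3%), of which 22.1% lay at a gene start, and 437 H3K4me3 regions (52.4%), of which 81.9% did. The cKO-specific Pol II list overlapped 697 H3K27ac (9.96%) and 145 H3K4me3 regions (17.4%). The list of cKO-specific Pol II phosphorylated at serine 5, the form near gene starts, overlapped 720 H3K27ac (10.3%) and 190 H3K4me3 regions (22.8%). At a start lay 58.1% of the H3K27ac regions under cKO Pol II and 61.5% of those under the serine 5 form, above the 30.1% of the whole list, and 86.9% and 86.8% of the H3K4me3 regions under the same lists. The cWT-specific lists of Pol II and of its serine 5 form are much shorter, and overlapped 54 and 9 H3K27ac regions and 11 and 3 H3K4me3 regions. As a share of the polymerase lists, cWT H3K27ac met 15.02% of 4647 cKO Pol II regions and 13.7% of 394 cWT Pol II regions, and cWT H3K4me3 met 3.14% of the cKO and 3.05% of the cWT Pol II regions. For the serine 5 form, cWT H3K27ac met 11.8% of 6163 cKO regions and 7.09% of 127 cWT regions. Across the marks, 204 cWT H3K27ac regions (2.92%) overlapped the cKO H3K4me3 list and 26 cWT H3K4me3 regions (3.12%) overlapped the cKO H3K27ac list.

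Genes with regions in both cWT lists also had cKO regions more often than genes with neither. A cKO H3K27ac region was assigned to 40 of the 332 shared genes (12.05%), to 8.64% of genes with H3K27ac only, 5.86% with H3K4me3 only and 1.71% with neither, against 3.2% of all genes. For cKO H3K4me3 the shares were 16.9% with both marks, 10.2% with H3K27ac only, 11.0% with H3K4me3 only and 4.23% with neither, against 5.62% of all genes. The classes differ in gene length, as given above, and its part was not tested. Named genes with a cKO H3K4me3 region included Dnmt3a, P2ry13, Dusp1, Junb, Hspa1b, Ctss, Zcchc2, Phf21a, Egr1, Ddx58, Sin3a and Mbp. Irf8, Elf4, Mef2c, Selenop, Rbm47 and Sipa1l2 had cKO regions of both marks, whereas others, such as Nek7, Nrp1 and Chd2, had none.

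The 5 regions with the smallest deposited p-values of each list lay mostly away from gene starts. For H3K27ac the smallest belonged to chr17:13305831-13306383 (6.77e-09, 48.5 kb from Tcp10c), followed by chr9:123461800-123462230 (7.93e-06, 16.6 kb from Limd1), and 1 of the 5 smallest lay at a start, that of Leng8 (chr7:4136571-4137697). For H3K4me3 the smallest belonged to chr3:149052457-149053019 (0.000142, 98.1 kb from Adgrl2), and 2 of the 5 smallest lay at a start, among them that of Oasl1 (chr5:114922298-114922742, 0.00113), an interferon-induced gene. The H3K4me3 region chrY:11857932-11858378 overlapped a cWT H3K27ac region and a cKO Pu.1 region. Among the regions with the smaller deposited p-values of each list, 36.5% of H3K27ac and 82.5% of H3K4me3 regions lay at a start.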

How the data were processed

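The data were 10 region lists on mm10 (GRCm38), each for a single antibody in a single genotype. Named in the submitters' processing notes are HOMER 4.11, bedtools 2.30.0, MACS2 2.2.7.1 and Bowtie2 2.4.4; the sources used here do not give their roles, the handling of replicates or the definition of specific. From the deposited lists, the authors' position, score, signal and p-value per region were read. The deposited score and p-value were used within a list only. The deposited signal, on an unstated scale, served to find lines split from the same domain and was not compared between lists. Depth is unknown, so intervals cover counting error of regions only.

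The members and gene lists were chosen with earlier results of these data known. Positions count from 1. Gene starts came from the RefSeq promoter table of GRCm38.p6 for 17492 of 21887 protein-coding genes (79.9%), and for the others either end of the gene was used. A region was at a start when it overlapped 2 kb on either side of one, and was assigned to the protein-coding gene with the nearest start within 100 kb. 1 region lies on unplaced sequence. All 365 symbols of the 17 gene lists matched, and some genes stand in more than 1 list. Overlap meant at least 1 bp. Fisher's exact test, two-sided, was used for shares and logistic regression for the interaction, and p-values were adjusted by Benjamini-Hochberg over these 5 tests. Odds ratios add 0.5 to each cell. The functions were tested on simulated regions. Named genes were the 10 with both marks and the most regions, the 5 with each mark alone and the most regions, up to 4 members per gene list and class, the 10 widest overlaps and the 5 smallest p-values per list; Mef2c, Lgmn, Nr4a1, Entpd1 and Ltc4s were chosen after their values were seen. Python 3.11.15, numpy 2.4.6, pandas 2.3.3, scipy 1.17.1 and matplotlib 3.10.9 were used. Some named genes are not reported here.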

Additional observations from a re-analysis of the deposited data

Results flagged for a closer look

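The odds ratio of lying at a gene start, H3K27ac over H3K4me3, was 1.45 times as large in the cKO lists (0.138) as in the cWT lists (0.0953), and the interaction of mark and genotype passed its test (adjusted p = 0.00779, likelihood ratio chi-square test). The interaction no longer passed in 2 alternatives, with adjusted p of 0.0514 and 0.182 by the same chi-square test. Its adjusted p-values over the 9 alternatives ran from 0.00583 to 0.182. The lists come without values per replicate, so the difference was tested over regions and not over mice.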

How the results depend on the processing

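Of 111 alternatives over 14 results, 87 kept the call or the size and 24 did not. In 0 of them did a result that passed its test turn direction. The odds ratio of H3K4me3 by overlap, which gave no call, ran from 0.717 to 1.09 in its 10 alternatives, so its direction changed. The odds ratio of the gene-start share stayed between 0.0792 and 0.142 in its 9 alternatives, that of the inside-gene share between 1.41 and 2.60 in 7 and that of H3K27ac by overlap between 5.50 and 13.2 in 10. Keeping the regions with the smaller deposited p-values of each list gave 126 genes with both marks, 2578 with H3K27ac only and 277 with H3K4me3 only. The shared genes were then 4.66% of H3K27ac genes and 31.3% of H3K4me3 genes, and direct overlap was 1.83% and 14.9%. The interaction ratio was 1.48 (likelihood ratio chi-square test, adjusted p = 0.0514). This setting removes regions by construction. With either gene end the interaction ratio was 1.21 (adjusted p = 0.182, chi-square test), and the cause was not tested. Assignment within 10 kb gave 214 genes with both marks, 2591 with H3K27ac only and a share of 30.6% of H3K4me3 genes, and within 2 kb 158, 1743 and 23.9%. All genes of the reference gave 5.42% and 35.1%, and the gene span 35.9% of H3K4me3 genes. Regions of at least 300 bp gave 6.06% of H3K27ac genes and 1.79% of H3K27ac regions in direct overlap. Overlap of at least 50% of the shorter region gave 1.83% of H3K27ac regions, and a gap of up to 1 kb gave 2.87% and 22.7%. Merging within 1 kb gave a median H3K27ac width of 455 bp. Of the 121 named genes, 68 changed their count by over 1.5 times and 37 kept no region within 2 kb, 47 and 18 within 10 kb, and 50 and 25 by gene span. The settings that left out regions shared with the same mark in the other genotype, kept listed starts only, or merged regions before counting genes and overlaps were chosen after seeing the data. No paired analysis was possible because the lists hold no values per replicate, and for the same reason leaving out each replicate was not run. The unknown depth limits any statement on regions that are not listed.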
